A study of Mus musculus with 9 samples.

Results

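Wild-type natural killer (NK) cells grown for 7 days in interleukin-15 (IL-15) were compared, gene by gene, with wild-type NK cells sorted from the spleen and not cultured. The cultured side was the 3 WT libraries, called here WT replicates 1, 2 and 3. The sorted side was 3 libraries, 1 each of the populations labelled Immature, M1 and M2, treated as 1 side. These 6 libraries were chosen by their labels from the 9 in the series, and the other 3 are Id2-null cultures. The sorted side mixes maturation stages, so its spread is a spread between stages and not between replicates of a stage.

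All 6 libraries came from the spleen of C57BL/6 mice with no drug or other treatment named. They were made from total RNA purified on RNeasy columns and copied to cDNA with SuperScript II. The labels state that samples 1 to 6 were cultured and samples 7 to 9 were sorted, with no other numbering. The listed order was used for these numbers, which is a limit of every comparison here. The sort markers of Immature, M1 and M2, the dose of IL-15, the source of the cells put into culture, and the age, sex and number of mice are not stated in the labels. Whether each library had its own animal or culture is not stated either. The p-values therefore reflect the scatter among these particular libraries, and that scatter may be technical. Culture, the sort, the handling of the cells and any difference between the mice fall on the same 2 sides and cannot be told apart.

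NK cells belong to the innate lymphocytes and kill virus-infected and tumour cells with granules that carry perforin and granzymes. IL-15 is the cytokine they need to survive and divide. It binds a receptor built from the beta chain CD122 and the common gamma chain, which signals through the kinases JAK1 and JAK3 to the transcription factor STAT5. In the spleen most NK cells are at rest, and as they mature they lose CD27 and gain CD11b, KLRG1 and the egress receptor S1PR5.

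Total counts ran from 4128414 in Immature to 4831831 in WT replicate 3. Levels are given as counts scaled to a common library size (CPM) after TMM scaling, in the order WT replicates 1, 2 and 3 for culture and Immature, M1 and M2 for the sorted cells. A cultured mean is given with its SD (n = 3). A gene is said here to have risen or fallen only where it passed edgeR's quasi-likelihood test at a Benjamini-Hochberg adjusted p under 0.05 and all 3 cultured values lay outside the range of the 3 sorted values. Other genes are given by their values.

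The first principal component held 85.15% of the variance and separated the 2 sides, and the second held 6.32% and ordered the sorted libraries as Immature, M1 and M2. Across genes, the cultured libraries correlated with each other at 0.9712 to 0.9849, and the sorted ones at 0.9479 to 0.9744. WT replicates correlated with Immature at 0.8015 to 0.8065, with M1 at 0.772 to 0.7811 and with M2 at 0.729 to 0.7418. Genes are not independent replicates, and these correlations are a description. All 10 defining NK markers in the list used here were expressed on both sides, which bears out the labelled cell type, and 8 of them fell in culture. Their summed level was 6836 to 7994 CPM in culture and 13859 to 20005 CPM in the sorted cells.

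The libraries differed in other ways that bear on what follows. The sorted libraries held transcripts of other blood cells, many of which were at or near 0 in culture. The myeloid markers summed to 1306, 1446 and 2234 CPM in Immature, M1 and M2 and to 382 to 583 CPM in culture. Itgax, which NK cells also express, made up most of the sum in culture and in Immature and M1, at 443, 336 and 563 CPM against 943, 1107 and 818 CPM. Mast cell and basophil markers summed to 133, 255 and 587 CPM in the sorted cells and to 13.6 to 33 CPM in culture. The sorted libraries also held both Xist and Y-linked transcripts, while the cultures held Y-linked transcripts and nearly no Xist. WT replicate 3 stood apart from WT replicates 1 and 2 in genes of glycolysis and of cholesterol synthesis. In bulk RNA, fewer cells of a type and less RNA per cell cannot be told apart.

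Of 11117 genes tested, 6325 were called, which is 56.9% of them, and 7291 lay wholly outside the sorted range, which is 65.6%. A gene was called and above all sorted libraries in 3004 cases, or 27.0% of genes tested. It was called and below all of them in 3225 cases, or 29.0%. These shares are the background against which every count below should be read. Over 2-fold changes numbered 1769 higher and 1580 lower, over 8-fold changes 351 and 301, and over 32-fold changes 85 and 148. A further 1062 genes lay outside the sorted range without being called, and 96 were called with a cultured value inside it. The median log2 fold change of all genes tested was -0.02. With library sizes alone in place of TMM it was 0.15, a shift of 0.17, and the calls then split into 3718 higher and 2606 lower against 3055 and 3270 with TMM. Higher calls made up 48.3% of all calls with TMM and 58.8% with library sizes alone, so small changes near 0 depend on the scaling.

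**Figure D1:**
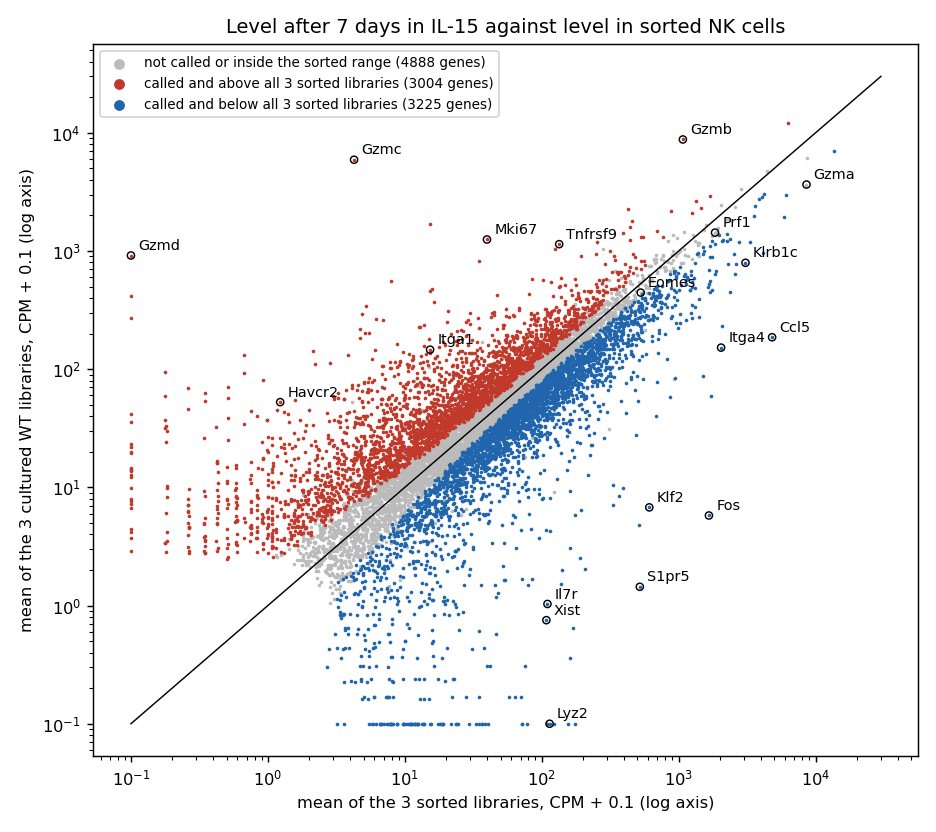
Mean level of each tested gene in the 3 sorted libraries (x axis) and in the 3 cultured WT libraries (y axis), in CPM plus a small constant on log axes, with the line of equal levels. Red points are the 3004 genes that were called and above all sorted values, blue points the 3225 called and below them, grey points all other genes, and circled genes are named in the text.

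Granule genes showed the largest rises, and they divided by gene. Of 22 members of the cytotoxic granule list tested, 7 rose and 6 fell, with a median log2 fold change of -0.23. As counts these were close to the shares of all genes tested, of which 27.0% rose and 29.0% fell. Of the 7 that rose, 6 were granzymes of the chromosome 14 cluster, and the other was Rab27a, a GTPase that docks granules at the membrane (log2 fold change 0.53, SE 0.17, adjusted p = 0.0255). The Rab27a call was lost without WT replicate 2, Immature or M1 (adjusted p 0.0629, 0.0607 and 0.062). Granzymes are serine proteases that enter target cells through perforin pores and start their death.

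Gzmb, the granzyme that cleaves caspases (Entrez 14939, chromosome 14, positions 56258836 to 56262334 in GRCm38.p6), stood at 8903, 9163 and 8245 CPM in culture. It stood at 149, 847 and 2222 CPM in Immature, M1 and M2. The groups did not overlap, and the lowest cultured value was 3.71 times the highest sorted one. The level rose to 8771 ± 473 CPM (adjusted p = 0.0106), or by 3.03 on the log2 scale (SE 0.78). Gzmc, its neighbour at positions 56231397 to 56241647, stood at 5042, 5533 and 7152 CPM in culture against 6.25, 3.78 and 2.45 CPM in the sorted cells. It rose by 10.47 on the log2 scale (SE 0.37, adjusted p = 1.36e-05), and its nearest libraries lay 806-fold apart. While Gzmb climbed from Immature to M2, Gzmc was near the floor in all 3 sorted stages.

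Another 4 granzymes of the cluster had no count in any sorted library. A count of 0 was read as up to 3 counts per library, which is 0.569 to 0.75 CPM here and covers counting error only. Gzmd stood at 613, 1201 and 931 CPM in culture and was at least 1251-fold higher than that floor. Gzme stood at 324, 580 and 350 CPM, at least 571-fold higher. Gzmg stood at 198, 427 and 190 CPM, at least 372-fold higher, and Gzmf, at 9.43, 19.7 and 30.3 CPM and 0 in the sorted cells, at least 27.1-fold higher. These cluster genes are close copies of one another, so the split of reads among them is uncertain.

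Gzma, which lies apart from the cluster on chromosome 13, did not share this pattern. It stood at 4852, 3163 and 2924 CPM in culture and at 1890, 7611 and 16228 CPM in Immature, M1 and M2. The cultured values lay between Immature and M1, and the log2 fold change of -1.23 (SE 0.63) missed the threshold at adjusted p = 0.126. Without Immature the call passed at adjusted p = 0.00344, and with the 3 sorted populations as separate groups at 0.0196. Gzmm, a granzyme on chromosome 10, fell from 58.5, 35.2 and 13.7 CPM to 7.84 ± 1.81 CPM. Levels per gene length, in RPKM, put the members on 1 scale. In culture Gzmc was at 6327, Gzmb at 6185, Gzma at 4153, Gzmd at 977 and Gzme at 453 RPKM. In the sorted cells Gzma was at 9768, Gzmb at 756 and Gzmc at 4.45 RPKM, so the leading granzyme per length differed between the sides.

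Prf1, which encodes perforin, stood at 1720, 1982 and 584 CPM in culture and at 565, 1816 and 3147 CPM in the sorted cells. The groups overlapped, WT replicate 3 lay near Immature, and the adjusted p was 0.629. Nkg7, a granule membrane protein, fell from 1838, 2569 and 3501 to 769 ± 94.1 CPM (log2 fold change -1.78, SE 0.24). Stx11, a syntaxin needed for granule release, fell from 44.8, 88.6 and 114 to 32.1 ± 4.29 CPM. Ctsc, the protease that activates granzymes, fell from 242, 329 and 600 to 167 ± 18.9 CPM. Lamp1 and Srgn also fell, and the Srgn call was lost in 5 alternative settings (adjusted p 0.0507 to 0.0922), library sizes alone among them. Without Immature 9 members were lower in place of 6, and without WT replicate 3 the median of the list was 0.04.

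**Figure D2:**
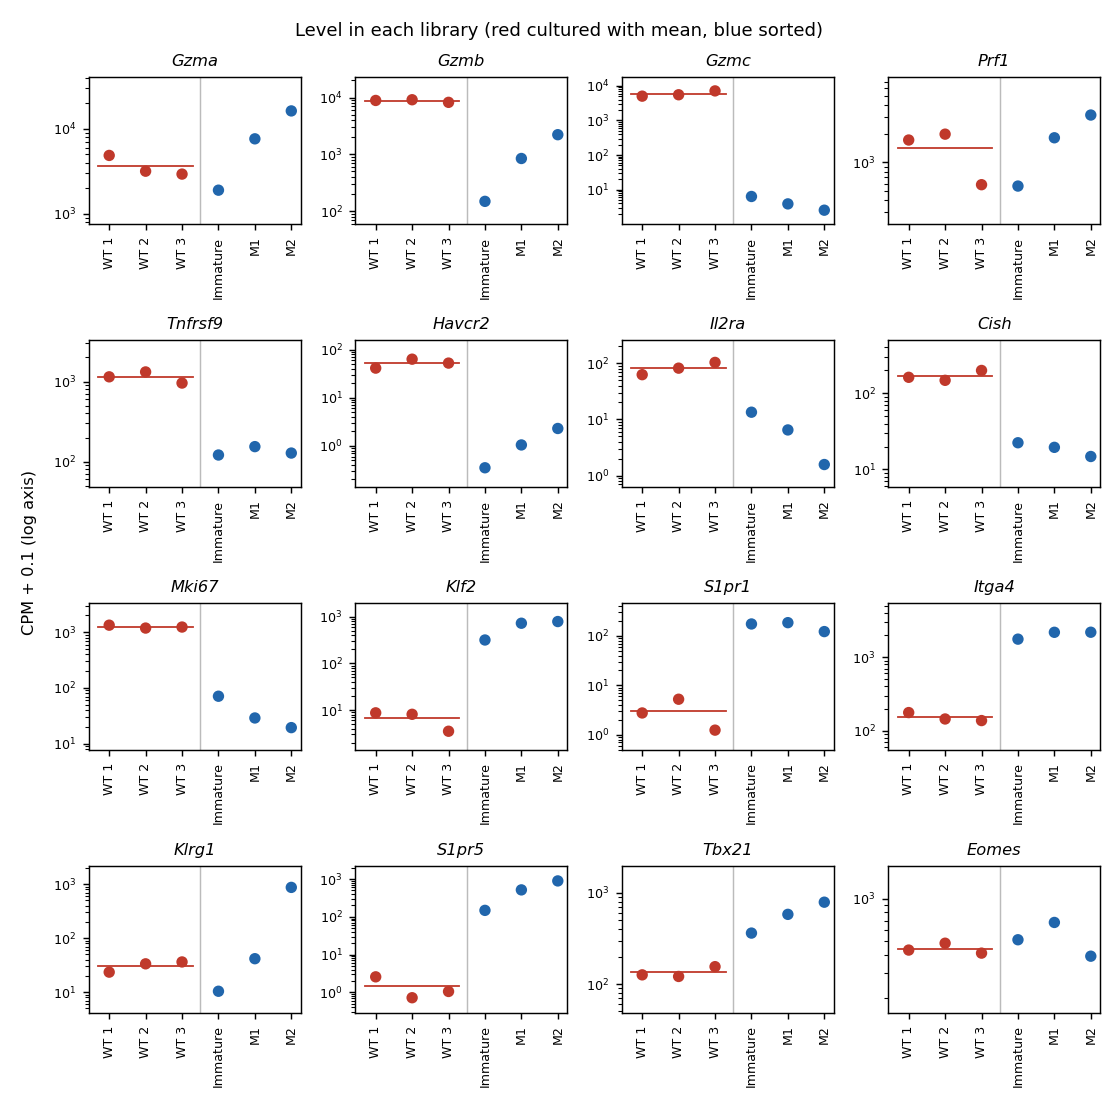
Level of 16 genes in each library, in CPM plus a small constant on log axes. Red points are WT replicates 1 to 3 with their mean as a line, blue points are Immature, M1 and M2. Gzmb, Gzmc, Tnfrsf9, Havcr2, Il2ra, Cish and Mki67 lie above every sorted point, Klf2, S1pr1, Itga4, S1pr5 and Tbx21 lie below, and Gzma, Prf1, Klrg1 and Eomes overlap the sorted range.

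Genes of the IL-15 receptor and its signal gave 4 members that rose and 8 that fell of 16 tested, with a median log2 fold change of -0.39. The 2 chains that carry the signal were slightly lower. Il2rb, which encodes CD122, stood at 2732, 2954 and 2604 CPM in culture and at 4280, 4068 and 3248 CPM in the sorted cells (log2 fold change -0.48, SE 0.16, adjusted p = 0.0335). Il2rg, the common gamma chain, stood at 618, 614 and 694 against 782, 859 and 931 CPM (log2 fold change -0.42, adjusted p = 0.0256). Each set of values lay apart by a small margin. The Il2rb call was lost with library sizes alone (adjusted p = 0.133) and without any WT replicate, Immature or M1 (0.0527 to 0.117). That of Il2rg was lost with library sizes alone (0.143) and without WT replicate 1 or 2, M1 or M2 (0.0608 to 0.106).

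Il2ra, the alpha chain CD25 that raises affinity for IL-2, rose from 13.3, 6.38 and 1.47 CPM to 62.3, 81.4 and 103 CPM. On the log2 scale it rose by 3.55 (SE 0.52, adjusted p = 0.00075). Il15ra, the chain that presents IL-15, stood at 13.8 ± 1.21 CPM against 16, 10.2 and 13.2 CPM, a difference of 0.07 on the log2 scale. Il7r, the IL-7 receptor chain that also pairs with the gamma chain, fell from 251, 44.2 and 33.8 CPM to 1.02, 0.82 and 0.948 CPM (log2 fold change -6.84, SE 1.04). Il7r was thus highest in Immature and nearly absent from each culture.

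Among the kinases the direction differed by gene. Jak1 fell from 2447, 2723 and 2485 to 935 ± 23.7 CPM (adjusted p = 0.00012, log2 fold change -1.45 with SE 0.13), while Jak3 rose from 187, 174 and 117 to 308 ± 75 CPM (log2 fold change 0.95, SE 0.23). Stat5b fell by 0.6 on the log2 scale. Stat5a stood at a log2 fold change of -0.36 with adjusted p = 0.0399, and its call was lost in 8 of the 14 alternative settings (0.0543 to 0.266), DESeq2 and library sizes alone among them. The survival genes downstream also parted, with Bcl2 higher at 629, 562 and 500 CPM against 357, 299 and 188 CPM, and Mcl1 lower at 184 ± 21.9 CPM against 373, 454 and 550 CPM. Both calls passed, at adjusted p = 0.00619 for Bcl2 and 0.000486 for Mcl1. Without WT replicate 1 or 2 or M1, and with library sizes alone, 5 members of this list were lower in place of 8.

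Feedback inhibitors of cytokine signalling gave 5 of 16 tested that rose and 4 that fell, with a median of -0.21. These counts were close to the shares of all genes tested, 27.0% and 29.0%. Cish, which encodes the inhibitor CIS, stood at 161, 147 and 198 CPM in culture against 22.3, 19.4 and 14.7 CPM, with the nearest libraries 6.59-fold apart (log2 fold change 3.16, SE 0.19, adjusted p = 3.63e-05). Socs2 rose from 16.3, 8.27 and 2.69 to 46.3 ± 3.3 CPM, and Socs1 from 41, 33.3 and 20.3 to 62.1 ± 9.7 CPM. Socs3 fell from 73, 65.2 and 31.3 CPM to 9.22, 14.6 and 7.2 CPM (adjusted p = 0.000867, log2 fold change -2.45 with SE 0.37). The MAP kinase phosphatases also divided. Dusp6 rose from 57.8, 59.3 and 50.7 to 192 ± 53.6 CPM, while Dusp1 fell from 297, 445 and 438 to 9.71 ± 2.02 CPM and Dusp2 from 216, 384 and 531 to 53.3 ± 8.62 CPM. Dusp4 had 122 counts in culture and 1 count in the sorted cells, a ratio of 99.9 (95% counting interval 17.6 to 3979).

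Cell cycle genes rose almost as a block. Of 30 members of the cell cycle and DNA replication list tested, 29 rose and 0 fell, 26 of them over 2-fold, with a median log2 fold change of 2.55. The summed level of the list was 6827, 6281 and 7214 CPM in culture against 2409, 1267 and 1396 CPM in the sorted cells. The highest sorted value was thus that of Immature. Mki67, which encodes the proliferation antigen Ki-67, rose from 70.8, 28.8 and 19.3 CPM to 1333, 1183 and 1234 CPM. On the log2 scale it rose by 4.98 (SE 0.46, adjusted p = 0.00012), with 16.7-fold between the nearest libraries. Plk1, a kinase of mitotic entry, rose from 27.5, 5.2 and 8.82 to 157 ± 8.17 CPM, and Tk1, the thymidine kinase of S phase, from 19, 4.73 and 7.59 to 105 ± 12.4 CPM.

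The rises were larger for genes of mitosis than for the helicase that licenses replication origins. Among mitotic genes, Ccnb2 and Cdk1, a cyclin and the kinase it activates, had log2 fold changes of 3.05 and 2.76, and Aurkb, Foxm1, Top2a and Cdc20 had 3.26, 3.3, 3.06 and 2.91. The helicase subunits Mcm2 to Mcm7 had 0.63 to 1.38. The lowest was Mcm6 (adjusted p = 0.0235), a call lost without any 1 WT replicate, M1 or M2 (0.0523 to 0.0891). Whether these groups of genes differed was not tested. The member that did not rise was Pcna, the clamp of the replicative polymerase, at 116, 167 and 134 CPM against 157, 113 and 152 CPM (adjusted p = 0.946). Its values overlapped in full.

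The promoters of these genes are shown because members moved together. RefSeq promoter windows of 250 bases before the start (GRCm38.p6) were found for 23 of the 29 members that rose, as 24 windows. The CCAAT box, searched as CCAAT on both strands and so read as ATTGG on the other strand, was in 17 of these 24 windows, or 70.8%. Among all 32851 windows of the same length it was in 33.8%, and among those of genes tested in 35.4%. The cell cycle element TTTGAA was in 25.0% of the 24 windows and in 16% of all. The E2F forms TTTCGCGC or TTTGGCGC were in 12.5% and in 0.654% of all, which is 3 windows. None of these motifs contains another. Among genes tested, TTTGAA was in 10.8% and the E2F forms in 1.30%. Over all genes that rose the CCAAT share was 36.6%, and over all that fell 33.2%. The STAT motif TTCNNNGAA was in 5.80% of windows of all genes that rose, against 5.95% of those of genes tested. Capitals mark CCAAT boxes in the windows of Ccnb2 (chr9:70421555-70421804, minus strand), Cdk1 (chr10:69352913-69353162, minus strand) and Mki67 (chr7:135716380-135716629, minus strand).
Ccnb2: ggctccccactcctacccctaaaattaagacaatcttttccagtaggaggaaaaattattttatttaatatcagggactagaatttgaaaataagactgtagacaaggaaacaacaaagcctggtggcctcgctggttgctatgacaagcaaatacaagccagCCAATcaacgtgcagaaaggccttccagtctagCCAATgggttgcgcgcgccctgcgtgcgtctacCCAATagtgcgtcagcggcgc
Cdk1: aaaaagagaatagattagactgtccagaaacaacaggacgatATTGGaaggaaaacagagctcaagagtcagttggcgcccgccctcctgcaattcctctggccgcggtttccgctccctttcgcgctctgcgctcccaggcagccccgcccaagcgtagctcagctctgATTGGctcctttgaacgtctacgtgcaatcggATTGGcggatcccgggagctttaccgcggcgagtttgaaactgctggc
Mki67: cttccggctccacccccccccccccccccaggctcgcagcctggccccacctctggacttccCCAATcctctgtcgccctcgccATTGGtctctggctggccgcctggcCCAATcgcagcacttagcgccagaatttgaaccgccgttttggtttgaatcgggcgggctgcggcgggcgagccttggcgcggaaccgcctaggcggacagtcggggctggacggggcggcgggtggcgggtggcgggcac
Each of these 3 windows held 3 CCAAT boxes. The matches describe the letters and do not show binding.

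Genes of quiescence mostly fell. Of 19 cell cycle inhibitors and quiescence genes tested, 12 fell and 2 rose, with a median of -0.71. With library sizes alone, or without WT replicate 1 or 2, 9 fell in place of 12. Klf2, a transcription factor of resting lymphocytes that maintains egress receptors (chromosome 8, positions 72319062 to 72321654), fell from 317, 725 and 788 CPM to 8.61, 8 and 3.41 CPM. The nearest libraries lay 36.9-fold apart, and the log2 fold change was -6.52 (SE 0.48, adjusted p = 5.53e-05). Klf4, a related factor, fell from 27.8, 23.2 and 10 to 1.02 ± 0.719 CPM. Tsc22d3, a target of glucocorticoids and FOXO factors, fell from 143, 228 and 292 to 27.7 ± 11.8 CPM. Btg1 and Txnip, which restrain growth, fell with log2 fold changes of -2.19 and -1.16. Cdkn1a, which encodes the inhibitor p21, rose from 3, 9.69 and 13.2 CPM to 159, 173 and 159 CPM (adjusted p = 0.000105, log2 fold change 4.24 with SE 0.38). Cdkn1b, which encodes p27, stood at 101 ± 18.3 against 91.5, 117 and 168 CPM and was not called. The other member that rose was Foxp1, at 137 ± 8.5 against 98, 106 and 88.6 CPM.

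Genes of glycolysis and of the response to low oxygen were higher in culture, with WT replicate 3 lowest. In the glycolysis and hypoxia response list 16 of 20 members were called higher and 0 lower, and 11 of these rose as defined here, with a median of 2.01. The summed level was 13899 and 15947 CPM in WT replicates 1 and 2, 3972 CPM in WT replicate 3, and 3322, 3178 and 3235 CPM in Immature, M1 and M2. Without WT replicate 3, 19 of the 20 were called and outside the sorted range, with a median of 2.44. Hk2, the hexokinase of growing cells, stood at 154, 168 and 41.7 CPM against 6.25, 5.44 and 5.39 CPM (adjusted p = 0.000366, log2 fold change 4.4 with SE 0.54). Slc16a3, the lactate exporter MCT4, stood at 347, 328 and 27.1 CPM against 10.8, 10.4 and 20.3 CPM (adjusted p = 0.00412, log2 fold change 4.08 with SE 0.85). For Slc16a3 the gap between WT replicates 2 and 3 was larger than that between WT replicate 3 and the sorted cells.

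The hypoxia targets Vegfa, Bnip3 and Egln3 were high in WT replicates 1 and 2 alone. Vegfa, a vascular growth factor, stood at 112, 120 and 5.87 CPM in culture against 7.25, 13.7 and 13.5 CPM. Egln3, a prolyl hydroxylase, stood at 86.1, 67.2 and 3.98 CPM against 5.75, 3.55 and 2.69 CPM. For Vegfa WT replicate 3 lay below the sorted range and for Egln3 within it. The Vegfa and Bnip3 calls were each lost in 6 alternative settings (adjusted p 0.0562 to 0.267 and 0.0658 to 0.268), and that of Egln3 by limma voom (0.216). Aldoa, Gpi1, Tpi1, Eno1, Pkm, Ldha and Pgk1, which encode enzymes of the pathway from glucose to lactate, rose with log2 fold changes of 1.85 to 2.42. Gapdh, at 42.1 ± 17.2 against 1.25, 5.67 and 4.16 CPM, is uncertain, since its many processed copies share its reads. What set WT replicate 3 apart was not tested.

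The hypoxia element ACGTGC was in 4 of 17 promoter windows of the 11 glycolysis and hypoxia members that rose, or 23.5%, against 4.92% of all windows and 6.73% of those of genes tested. It shares letters with the E-box CACGTG, so 1 stretch can match both. The window of Slc16a3 (chr11:120948817-120949066, plus strand) held 2 such elements close to the start, in capitals.
Slc16a3: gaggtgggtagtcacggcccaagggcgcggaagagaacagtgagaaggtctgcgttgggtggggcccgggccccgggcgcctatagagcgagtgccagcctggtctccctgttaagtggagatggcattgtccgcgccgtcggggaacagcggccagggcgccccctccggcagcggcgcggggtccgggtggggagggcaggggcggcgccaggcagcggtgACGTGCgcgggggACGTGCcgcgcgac

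Cholesterol synthesis genes were higher in all 3 cultures. In the list of cholesterol and fatty acid synthesis genes 19 of 20 were called higher and 0 lower, 16 rose as defined, and the median was 2.38. The list summed to 6143, 5708 and 2379 CPM in culture and to 1091 to 1244 CPM in the sorted cells, so WT replicate 3 again held the lowest cultured value and still lay above every sorted one. Sqle, the epoxidase of the pathway, stood at 167, 154 and 74.7 CPM against 4.5, 2.6 and 4.16 CPM (adjusted p = 5.71e-05, log2 fold change 5.13 with SE 0.38). Cyp51, a sterol demethylase, stood at 289, 267 and 120 CPM against 14.5, 12.1 and 11.8 CPM. Hmgcs1, an early synthase of the pathway, and Srebf2, the factor that drives it, had log2 fold changes of 3.17 and 2.22. Dhcr7 was not called at 73.2 ± 26.1 against 47, 40.2 and 66.4 CPM, and passed without WT replicate 3 (adjusted p = 0.0156). Fasn, fatty acid synthase, and the desaturases Scd1 and Scd2 were called but not above all sorted values. For Scd1 and Scd2, WT replicate 3 stood at 6.06 and 258 CPM, below the lowest sorted values of 9 and 259 CPM. The Scd1 call was lost in 7 alternative settings (adjusted p 0.0506 to 0.299), that of Fasn in 4 (0.0681 to 0.107) and that of Scd2 in 3 (0.0527 to 0.0613). Without WT replicate 3 all 20 members were higher.

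CCAAT boxes were in 10 of 12 promoter windows of the cholesterol and fatty acid members that rose, or 83.3%. The share was 33.8% among all windows and 35.4% among those of genes tested. A high share was not limited to genes that rose. It was 62.5% of 8 windows of NK lineage transcription factors that fell. In the MYC and ribosome biogenesis members that rose it was 14.3% of 14 windows. The E-box CACGTG was in 7.14% of these 14 windows, against 8.48% of those of genes tested. The window of Hmgcs1 (chr13:119690101-119690350, plus strand) held 3. All lie on the minus strand, so the plus strand printed here reads ATTGG, shown in capitals.
Hmgcs1: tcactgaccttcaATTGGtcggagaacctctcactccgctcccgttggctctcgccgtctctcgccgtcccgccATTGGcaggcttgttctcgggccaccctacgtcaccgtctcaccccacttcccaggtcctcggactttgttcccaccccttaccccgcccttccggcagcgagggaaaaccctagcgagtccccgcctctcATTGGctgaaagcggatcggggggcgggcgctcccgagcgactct

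Amino acid supply rose in part. Of 16 members tested in the amino acid and ATF4 target list, 8 rose and 1 fell, with a median of 1.30. Asns, asparagine synthetase, stood at 89.6, 92.1 and 30.3 CPM against 0.75, 0.236 and 0.245 CPM (adjusted p = 0.000118, log2 fold change 7.35 with SE 0.67). Slc7a5, the large neutral amino acid carrier, stood at 257, 280 and 88.9 CPM against 42.3, 18.7 and 17.9 CPM, and Mthfd2, of mitochondrial folate metabolism, at 91, 106 and 55 CPM against 24, 5.44 and 11.3 CPM. WT replicate 3 was the lowest culture for each of these 3, and above all sorted values. Ddit3, the stress factor CHOP, was the member that fell, from 17.8, 28.8 and 32.6 to 11.7 ± 4.45 CPM, a call lost without M1 or M2 (adjusted p 0.0556 and 0.05). Without WT replicate 3, 12 members were called and outside in place of 8.

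Ribosome biogenesis rose evenly over the 3 cultures. Of 20 members of the MYC and ribosome biogenesis list tested, 16 rose and 0 fell, with a median of 1.08 and summed levels of 3495, 3819 and 3812 CPM against 2204, 1627 and 1236 CPM. Without WT replicate 2 or M1 13 rose, and without WT replicate 3 14 did. Myc stood at 139, 173 and 141 CPM against 92, 70.4 and 30.1 CPM (adjusted p = 0.0146, log2 fold change 1.23 with SE 0.34), a call lost without WT replicate 2 (adjusted p = 0.0532). Nop56, of the small nucleolar RNA complex, stood at 158, 156 and 157 CPM against 52, 46.1 and 39.7 CPM. Odc1, the first enzyme of polyamine synthesis, rose from 72, 49.6 and 42.6 to 195 ± 30.5 CPM, and Gnl3, a nucleolar GTPase, from 26.8, 17 and 13.5 to 73 ± 11 CPM. Nuclear genes of oxidative phosphorylation did not follow. Of 20 tested, 1 rose and 8 fell, with a median of -0.34. Ndufa4 fell from 126, 117 and 153 to 42.8 ± 6.25 CPM, while Uqcrfs1 and Uqcrc2, of respiratory complex III, fell by 0.85 and 0.8 on the log2 scale. The member that rose was Cox7a2, at 10.6 ± 2.48 against 4.75, 4.02 and 6.86 CPM. With all 9 libraries, or without WT replicate 2 or M1, its call was lost (adjusted p 0.113, 0.0738 and 0.0807) and 0 members rose. Of 15 mitochondrially encoded genes tested 3 rose and 3 fell.

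**Figure D3:**
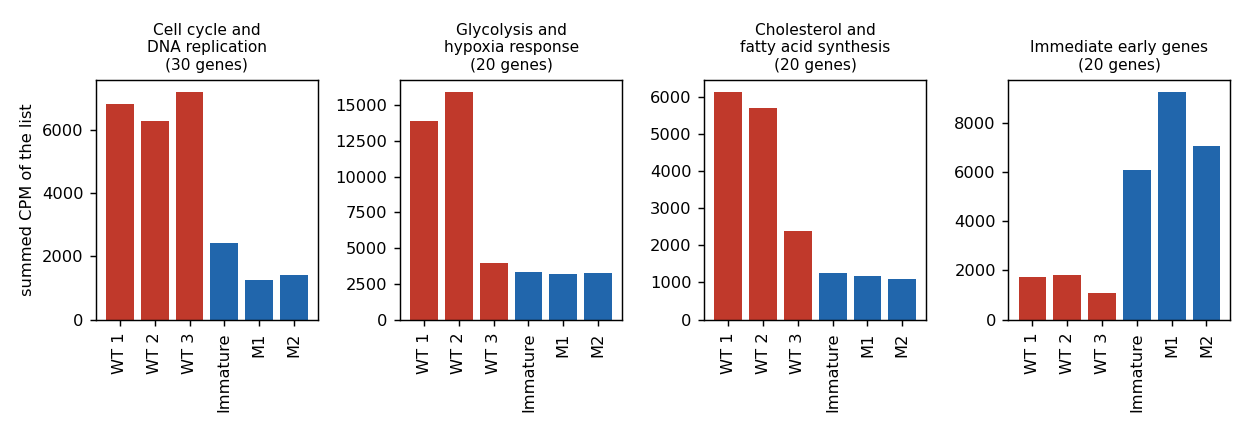
Summed CPM of 4 gene lists in each library, as bars from 0, red for WT replicates 1 to 3 and blue for Immature, M1 and M2. The cell cycle sums lie at 6281 to 7214 CPM in culture, the glycolysis sum of WT replicate 3 (3972 CPM) lies near the sorted sums, its cholesterol sum (2379 CPM) lies between the other cultures and the sorted cells, and the immediate early sums are highest in the sorted cells.

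Receptors of the NK gene complex were lower in culture. The Ly49 and lectin list, with Ncr1, gave 18 of 22 tested that fell and 1 that rose, with a median of -1.67. Klrb1c, which encodes NK1.1, stood at 829, 705 and 849 CPM against 2305, 2969 and 3951 CPM (adjusted p = 0.000252, log2 fold change -1.95 with SE 0.22). Klrk1, the activating receptor NKG2D, stood at 468, 324 and 563 CPM against 1653, 1833 and 1584 CPM, and Ncr1, the activating receptor NKp46, at 478, 370 and 552 CPM against 1420, 1769 and 2090 CPM. The 3 receptors fell by similar amounts, with log2 fold changes of -1.95, -1.9 and -1.91. Klra9, a Ly49 gene, fell from 305, 590 and 1585 to 121 ± 18.8 CPM, Klrc2, an NKG2 chain, from 160, 246 and 229 to 38.1 ± 9.48 CPM, and Klrb1a from 268, 309 and 374 to 79 ± 38.6 CPM. The member that rose was Klra5, at 36.6 ± 9.11 against 15.3, 10.9 and 18.9 CPM. With library sizes alone, or without M2, 2 members rose. Ly49 genes are near-identical copies, and their separate counts are uncertain.

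Activation and checkpoint receptors went the other way. Of 15 tested, 7 rose and 2 fell, with a median of 1.15. Tnfrsf9, which encodes the costimulatory receptor CD137, stood at 1146, 1319 and 958 CPM against 121, 154 and 128 CPM (adjusted p = 2.54e-05, log2 fold change 3.09 with SE 0.18). Havcr2, which encodes the inhibitory receptor TIM-3, stood at 41.4, 63.6 and 52.7 CPM against 0.25, 0.945 and 2.2 CPM, with 18.8-fold between the nearest libraries (log2 fold change 5.5, SE 0.42, adjusted p = 6.01e-05). Lag3, Icos, Cd96 and Cd200r1 rose with log2 fold changes of 2.08, 1.77, 1.15 and 2.29. Ctla4 rose to 14.8, 26.9 and 2.27 CPM from 1, 0 and 1.22 CPM, with adjusted p = 0.00812 and, by limma voom, 0.0927. Tigit stood at 60.2 ± 5.24 against 45.3, 53.9 and 22.8 CPM and was not called, while it passed with the sorted populations as 3 groups (adjusted p = 0.00439), with a linear term for stage (0.0371) and without M1 (0.0493). The members that fell were Cd226, an activating adhesion receptor, from 177, 94.8 and 108 to 59.2 ± 9.82 CPM, and Slamf6. Slamf6 had no count in any culture and stood at 36.8, 13.7 and 6.12 CPM in the sorted cells, at least 31.5-fold higher than the floor.

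Genes of NK maturity fell for the most part. Of 15 members tested, 8 fell and 1 rose, with a median of -3.25. Without Immature 10 fell and 3 rose. S1pr5, the egress receptor of mature NK cells, stood at 2.46, 0.615 and 0.948 CPM in culture against 148, 517 and 894 CPM, with 60.3-fold between the nearest libraries (log2 fold change -8.58, SE 0.84, adjusted p = 0.000152). Zeb2, a repressor required for late maturation, fell from 47.5, 179 and 286 to 17.9 ± 3.66 CPM (log2 fold change -3.25, SE 0.57). Cx3cr1, a chemokine receptor of mature NK cells and also of monocytes, stood at 5, 25.8 and 452 CPM in the sorted cells and at 0.205, 0 and 0.569 CPM in culture. Cma1 stood at 15.8, 228 and 751 CPM against 6.35, 13.1 and 1.33 CPM. Both passed in edgeR, at adjusted p = 0.00741 and 0.0067, and neither passed by limma voom (0.208 and 0.0913). Itga2, which encodes the NK marker CD49b, fell from 195, 272 and 215 to 22.6 ± 3.98 CPM with little difference between stages.

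The surface markers known to change with maturation overlapped the sorted range. Itgam, which encodes CD11b, stood at 125, 84.5 and 36.6 CPM against 53, 1037 and 1680 CPM, so the cultures lay nearest Immature. Cd27 stood at 42.8, 50.2 and 39.4 CPM against 187, 140 and 38.2 CPM, nearest M2. Klrg1 stood at 23.4, 33.4 and 36.2 CPM against 10.3, 41.6 and 873 CPM, between Immature and M1. Itgam and Cd27 passed the test, at adjusted p = 0.0182 and 0.0285, without lying outside the range, and Klrg1 missed it at 0.0616. The Itgam call was lost by limma voom (0.0757) and without WT replicate 2 or 3 (0.0645 and 0.0625). That of Cd27 was lost by limma voom (0.082) and without any 1 WT replicate, Immature or M1 (0.0733 to 0.094). Klrg1 passed in 6 alternative settings (adjusted p 0.00147 to 0.0439), among them the sorted populations as 3 groups. Kit, the receptor of stem cell factor, stood at 271, 237 and 564 CPM against 312, 156 and 56.1 CPM and was not called, while it passed in 3 alternative settings (adjusted p 0.00605 to 0.0199). Thy1 rose, from 577, 380 and 219 CPM to 1170, 1689 and 1436 CPM (log2 fold change 1.87, SE 0.33). The cultures therefore matched no stage in all of these markers.

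Genes that changed with stage among the sorted cells were also set against the cultures. The choice used the sorted values, so these counts are a description. Of 271 genes that climbed over 2-fold from Immature through M1 to M2, 160 fell in culture, or 59.0%, and 12 rose, or 4.43%. Of all genes tested 29.0% fell and 27.0% rose. The climbing genes included markers of other blood cells with 0 counts in culture, such as Prss34, Lyz2 and S100a9. Their part in the 160 was not tested, so the 160 are not all genes of NK maturation. The cultured mean of the 271 climbing genes lay below all sorted values in 172, above in 21 and inside the range in 78. Of 196 genes that declined over 2-fold in that order, 66 rose and 28 fell, or 33.7% and 14.3%, and the cultured mean lay above all sorted values in 91, below in 36 and inside in 69.

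Homing and egress receptors changed strongly. Of 17 members tested in the residency and homing list, 8 fell and 3 rose, with a median of -1.28. S1pr1, an egress receptor whose gene KLF2 activates, fell from 174, 185 and 122 to 2.98 ± 2.01 CPM. Itga4, the alpha 4 integrin chain, stood at 176, 144 and 137 CPM against 1758, 2178 and 2183 CPM (adjusted p = 1.53e-05, log2 fold change -3.74 with SE 0.18). Both genes varied little between stages beside their distance from the cultures. Cxcr4, Rgs2, Itgb7, S1pr4 and Ccr7 also fell.

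The 3 members that rose were Itga1, Cxcr6 and Cd69. Itga1, which encodes CD49a of tissue-resident NK cells, stood at 150, 142 and 147 CPM against 16.5, 9.22 and 19.8 CPM (adjusted p = 5.66e-05, log2 fold change 3.27 with SE 0.24). Cxcr6 stood at 61.5, 50.6 and 38.1 CPM against 31.5, 6.62 and 17.6 CPM, a call lost without WT replicate 1 or 2 or M2 (adjusted p 0.0588 to 0.0848). Cd69, which binds S1PR1 and holds cells in tissue, rose from 62.8, 52 and 44.1 to 94.7 ± 19.2 CPM. Itgae, which encodes CD103, was low on both sides, at 1.5 ± 0.855 against 3, 2.6 and 5.63 CPM, and was called lower with all 9 libraries and without WT replicate 3 (adjusted p 0.0441 and 0.0299). In the list of ILC1-like and tissue NK genes 5 of 10 tested rose and 1, Il7r, fell, with a median of 1.21. Inpp4b and Cd200r1 rose from 15.3, 3.78 and 3.67 to 58.1 ± 10 CPM and from 9.25, 4.96 and 7.1 to 34.9 ± 8.53 CPM. Without Immature 8 members rose, and without WT replicate 1 or M2 3 did.

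NK lineage transcription factors mostly stayed expressed. Of 19 tested, 7 fell and 2 rose, with a median of -0.37. Eomes, a T-box factor of NK identity, stood at 434, 485 and 413 CPM against 513, 679 and 393 CPM and was not called (adjusted p = 0.311). Tbx21, which encodes the related T-bet, fell from 362, 581 and 790 to 134 ± 18.3 CPM (adjusted p = 0.000448, log2 fold change -2.11 with SE 0.27). Id2, the inhibitor of E proteins that NK cells require, fell from 779, 933 and 1224 to 388 ± 17.3 CPM (adjusted p = 0.000542, log2 fold change -1.33 with SE 0.18). Nfil3, a factor of early NK commitment, rose from 54.8, 78.5 and 64.2 CPM to 223, 235 and 94.6 CPM, lowest in WT replicate 3. The other member that rose was Irf4, at 12.7 ± 0.498 against 8.75, 1.18 and 3.67 CPM (adjusted p = 0.04). Its call was lost with all 9 libraries (0.117) and without any 1 WT replicate, M1 or M2 (0.0647 to 0.101), and all of these settings but the one without WT replicate 3 left 1 member that rose. Tcf7, which encodes TCF-1 of immature cells, stood at 157, 201 and 286 CPM against 1031, 539 and 136 CPM, between M1 and M2. It was not called (adjusted p = 0.0748), and was without M2 (0.00245), with the sorted populations as 3 groups (0.00731) and with a linear term for stage (0.00733).

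Cytokine and chemokine genes gave 5 of 13 tested that fell and 3 that rose, with a median of -0.71. Among all genes tested 29.0% fell and 27.0% rose, so these counts alone do not set the list apart. Ccl5, which encodes a chemokine stored by memory and NK cells, stood at 207, 187 and 163 CPM in culture against 3172, 4049 and 7216 CPM (adjusted p = 5.37e-05, log2 fold change -4.7 with SE 0.34). Per length it was next to Gzma the highest gene in the sorted cells, at 9046 RPKM against 349 RPKM in culture. Ccl4 and Ccl3 fell from 314, 591 and 617 to 53.2 ± 5.63 CPM and from 130, 343 and 370 to 50.4 ± 8.61 CPM. Ifng, the main cytokine of activated NK cells, fell from 97, 181 and 128 to 32.4 ± 9.74 CPM (adjusted p = 0.000601, log2 fold change -2.06 with SE 0.29). Tgfb1 and Flt3l rose, from 178, 198 and 188 to 396 ± 25 CPM and from 59, 60.5 and 60 to 105 ± 7.43 CPM. Csf2 also rose (log2 fold change 1.44, adjusted p = 0.031), a call lost without WT replicate 2 or 3, M1 or M2 (0.0608 to 0.116). Ccl1, outside the list, stood at 12.3, 6.36 and 50.6 CPM in culture with no sorted count, at least 31.6-fold higher. Without Immature the list median was 0.06, with 5 members higher and 6 lower.

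Immediate early genes were high in the sorted cells. Of 20 tested, 13 fell and 2 rose, with a median of -1.89, and the list summed to 6055, 9248 and 7043 CPM in Immature, M1 and M2 against 1094 to 1824 CPM in culture. Fos stood at 1372, 2050 and 1568 CPM in the sorted cells and at 7.17, 7.59 and 2.27 CPM in culture. The nearest libraries lay 181-fold apart, and on the log2 scale the change was -8.2 (SE 0.42, adjusted p = 2.27e-05). Fosb stood at 432, 722 and 373 CPM against 5.12, 5.13 and 3.79 CPM, and Jun at 516, 993 and 576 CPM against 80.1, 100 and 51 CPM. Not all members fell. Egr1 stood at 279, 234 and 54.8 CPM in culture against 91.5, 150 and 111 CPM and was not called (adjusted p = 0.269, and 0.0051 without WT replicate 3). Egr3 rose from 9, 12.1 and 5.14 to 36.9 ± 8.76 CPM, and Fosl2 from 65.5, 87.2 and 73.7 to 113 ± 19.1 CPM. Without WT replicate 3, 4 members rose. Genes of this class are known to respond within minutes to stimulation and handling, and handling and culture cannot be told apart here.

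Heat shock and chaperone genes moved both ways. Hspa1b stood at 28.5, 41.1 and 43.3 CPM in the sorted cells and at 0.615, 0.205 and 0.19 CPM in culture (log2 fold change -6.71, SE 0.38, adjusted p = 2.53e-05). Its near-identical copy Hspa1a had 200 counts in the sorted cells and 3 in culture, a ratio of 81.4 (95% counting interval 27.5 to 398). All genes tested fell in 29.0% and rose in 27.0% of cases. Of 16 heat shock and chaperone genes tested 3 fell and 5 rose, with a median of -0.02. Dnajb1, the third that fell, went from 149, 183 and 198 to 79.6 ± 7.72 CPM. The chaperones Hsp90ab1, Hsp90aa1 and Hspa9 rose, with log2 fold changes of 0.78, 0.68 and 0.92. Without WT replicate 2 or M1, and with no filter on low counts, 3 members rose in place of 5. The median changed sign with library sizes alone (0.14) and without WT replicate 1, WT replicate 2 or Immature (0.05, 0.03 and 0.08).

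Interferon-stimulated genes fell in the main. Of 17 tested, 10 fell and 3 rose, with a median of -1.13. Ifit3 fell from 26, 32.1 and 20.8 to 0.789 ± 0.685 CPM, Isg15, a ubiquitin-like protein, from 24, 31.2 and 25 to 4.81 ± 0.728 CPM, and Ifit2 from 47.8, 50.8 and 64.2 to 17.2 ± 4.74 CPM. The 3 that rose were Isg20, an exonuclease, at 20.9, 29.5 and 15.7 CPM against 2.75, 0.945 and 2.69 CPM, Mx1 at 17.8 ± 2.78 against 4, 6.62 and 4.41 CPM, and Bst2 at 47.7 ± 3.94 against 37.8, 30.7 and 34.8 CPM. The Bst2 call was lost without WT replicate 2 or 3 or M1 (adjusted p 0.0543 to 0.0817).

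The BCL2 family, which sets the threshold for apoptosis, gave 4 of 12 tested that rose and 3 that fell, with a median of -0.13. These counts were close to the shares of all genes tested, 27.0% and 29.0%. Beside Bcl2, the proapoptotic members Bax, Bak1 and Bcl2l11 rose. Bax went from 49.5, 49.6 and 46.3 to 105 ± 26 CPM and Bcl2l11, which encodes BIM, from 148, 169 and 175 to 262 ± 49.2 CPM (adjusted p = 0.00741, log2 fold change 0.67 with SE 0.16). Mcl1, Bcl2a1b and Bid were the members that fell. The Bcl2a1b and Bid calls were lost in 6 and 9 of the alternative settings, with adjusted p up to 0.156 and 0.209. With library sizes alone, with all 9 libraries, and without WT replicate 1 or 2 or M1, 1 member was lower in place of 3, and the median was 0.04 with library sizes alone. Of 8 GIMAP genes, which encode lymphocyte GTPases that support survival, 6 fell and 1 rose, with a median of -0.65. Gimap6 fell from 926, 851 and 728 to 425 ± 12.6 CPM and Gimap1 from 242, 264 and 326 to 151 ± 21.7 CPM, while Gimap7 rose from 180, 145 and 149 to 247 ± 26.7 CPM. No GIMAP gene changed over 2-fold. Without WT replicate 2, 4 GIMAP genes fell in place of 6.

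**Figure D4:**
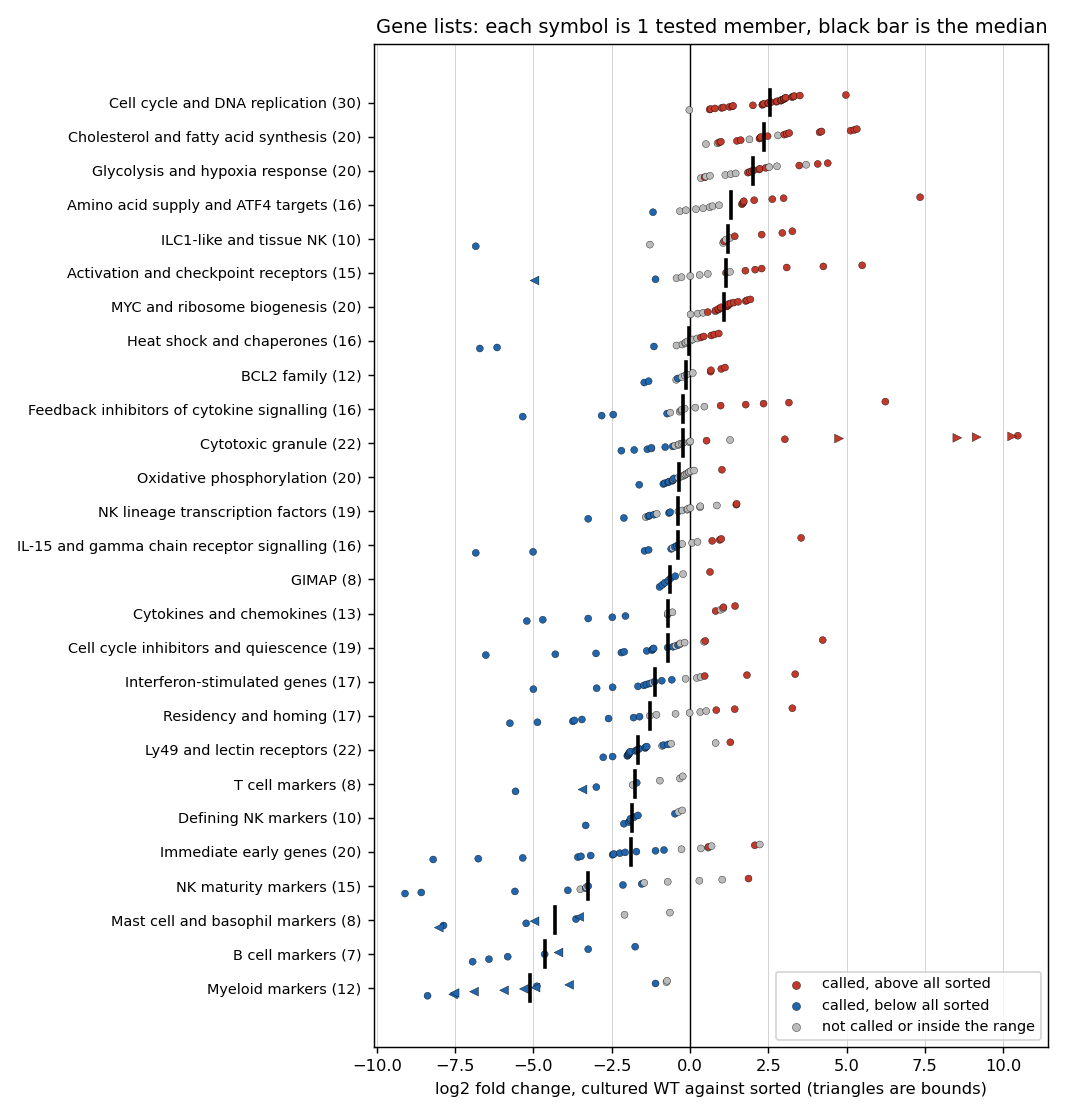
Log2 fold change of each tested member of the gene lists, cultured WT against sorted, with the number tested in parentheses. Red members were called and above all sorted values, blue members called and below, grey members neither, triangles are bounds for genes with no count on 1 side, and black bars are list medians with such genes at their bound. The cell cycle median lies at 2.55 and the cholesterol median at 2.38. The myeloid, B cell, and mast cell and basophil lists lie at the low end, and the T cell median lies at -1.77.

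The genes with the largest rises by the fitted value, among those at 20 CPM or more, were Gzmd, Gzme, Gzmg, Gm2274, Gzmc, Entpd4b, H2ac23, Ccl1, Mgat3 and Ahrr. Gm2274 and Entpd4b, both on chromosome 14, stood at 34, 38.5 and 52.7 CPM and at 34.6, 35.7 and 35.8 CPM in culture, with no sorted count, at least 57.1-fold and 48.4-fold higher. Both also had no count in the third Id2-null culture, so their absence was not limited to the sorted cells. Mgat3, a glycosyltransferase, stood at 13.7, 27.5 and 24.8 CPM with no sorted count, at least 30.1-fold higher. H2ac23, a histone gene with near-identical copies, had 1414 counts in culture and 1 in the sorted cells, a ratio of 1158 (95% counting interval 208 to 45779). Ahrr, the repressor of the aryl hydrocarbon receptor and a target of it, stood at 50.6, 43.3 and 82.2 CPM with 1 sorted count, a ratio of 731 (131 to 28891). In all, 24 tested genes had no count in the sorted libraries and 73 had none in the cultures.

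The 10 largest falls were As3mt, Prss34, Slc40a1, Lyz2, S100a9, Vcam1, Mpeg1, Dtx1, S100a8 and C1qa, each with no count in any culture. Prss34 is a basophil protease, and it stood at 64.5, 117 and 287 CPM in Immature, M1 and M2, at least 260-fold higher than the culture floor. Lyz2, lysozyme of myeloid cells, stood at 55.8, 58.8 and 226 CPM, and the neutrophil genes S100a8 and S100a9 at 26.3, 28.4 and 159 CPM and at 39.3, 52.7 and 238 CPM. Slc40a1, Vcam1, Mpeg1 and C1qa, which are known from macrophages, behaved likewise, with 58.5, 52 and 256 CPM for Slc40a1. These 8 genes were highest in M2. As3mt, an arsenic methyltransferase, stood at 82.8, 194 and 246 CPM, at least 291-fold higher. Dtx1, a Notch target, ran the other way over the stages, at 138, 55.5 and 23 CPM, at least 120-fold higher.

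Markers of other cells were counted as whole lists beside these falls. Of 12 myeloid markers tested 10 fell, of 8 mast cell and basophil markers 6, of 7 B cell markers 7 and of 8 T cell markers 4, and none of these lists had a member that rose. Their medians were -8.88, -6.55, -5.82 and -1.77, and -5.12, -4.30, -4.64 and -1.77 with genes at 0 set at their bound. Among those tested, of the myeloid markers Lyz2, S100a8, S100a9, Adgre1, Mpo, Ngp and Camp were at 0 in every culture, of the B cell markers Ms4a1, and of the basophil markers Fcer1a, Ms4a2 and Prss34. B cell markers summed to 553, 403 and 610 CPM in Immature, M1 and M2 and to 117 to 166 CPM in culture, mostly Ighm on both sides (134 ± 27.1 CPM in culture). Csf1r, the macrophage growth factor receptor, had 928 sorted counts and 3 cultured counts, a ratio of 378 (129 to 1835), and Gata2, of basophils and mast cells, 271 and 1, a ratio of 331 (58.9 to 13115). T cell markers summed to 70.9 to 230 CPM in culture and to 587, 105 and 174 CPM in the sorted cells, and Trac fell from 39.8, 15.6 and 26.9 to 8.43 ± 4.61 CPM, a call lost without WT replicate 1 (adjusted p = 0.0512). Erythroid and platelet markers summed to 18.5 to 51.2 CPM in the sorted cells and to 0.379 to 1.64 CPM in culture, with Itga2b the member tested, which fell. Stromal and endothelial markers summed to 135 to 163 CPM in culture and to 154 to 166 CPM in the sorted cells, nearly all Pecam1, which was not called. The part of these cells in the falls of other genes was not tested.

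**Figure D5:**
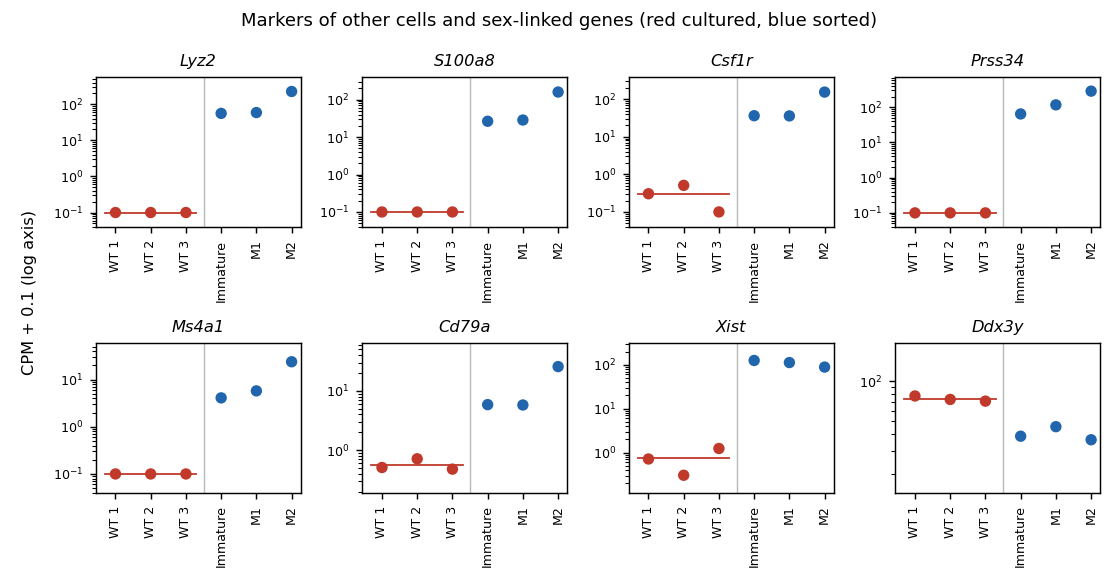
Level of 6 markers of other blood cells and 2 sex-linked genes in each library, in CPM plus a small constant on log axes, red for WT replicates 1 to 3 and blue for Immature, M1 and M2. Lyz2, S100a8, Prss34 and Ms4a1 are at 0 in the cultures, Csf1r and Cd79a are near 0, Xist is at 88.4 to 125 CPM in the sorted cells, and Ddx3y is present in all 6 libraries.

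Sex-linked genes differed between the sides. Xist, the RNA of the inactive X chromosome in female cells, stood at 125, 112 and 88.4 CPM in the sorted cells and at 0.615, 0.205 and 1.14 CPM in culture (log2 fold change -7.29, SE 0.33, adjusted p = 1.36e-05). The Y-linked Ddx3y stood at 77.3, 72.8 and 70.7 CPM in culture against 38.5, 45.4 and 36.2 CPM, and Eif2s3y, Kdm5d and Uty rose likewise, with log2 fold changes of 0.92, 1.31 and 1.14, a call lost for Uty with all 9 libraries (adjusted p = 0.0617). All 5 Y-linked genes tested rose. Of 348 genes tested on the X chromosome 81 rose and 131 fell, or 60.9%, against 55.9% of the 10749 elsewhere on nuclear chromosomes other than Y. Sex and culture cannot be told apart for any gene here.

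The genes with the highest level per length shifted as well. In culture they were Actb, Gzmc, Gzmb, COX1, Mir682, Gzma, B2m and ND1, and in the sorted cells Gzma, Ccl5, COX1, Mir682, B2m, Eef1a1, CYTB and H2-K1. Actb, cytoskeletal actin, rose from 4907, 6537 and 7292 CPM to 12738, 13704 and 9700 CPM (log2 fold change 0.95, SE 0.22). B2m, the light chain of MHC class I, fell from 6378, 5692 and 6282 to 2983 ± 90.1 CPM, and H2-K1, a heavy chain, from 5820, 5891 and 6056 to 1924 ± 184 CPM. COX1 fell from 14571, 12143 and 14010 to 6984 ± 130 CPM, while ND1 was not called at 3324 ± 137 against 3160, 2473 and 2966 CPM. CYTB stood at 3055 ± 198 against 4415, 3709 and 4464 CPM, a call lost with library sizes alone and without any WT replicate or M2 (adjusted p 0.0696 to 0.13). Eef1a1 was not called (adjusted p = 0.0686), and DESeq2 called it at 0.0237.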

How the data were processed

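RNA from wild-type NK cells was measured in 3 libraries cultured for 7 days in IL-15 and in 3 sorted, uncultured libraries. The deposited values are whole-number read counts per gene (Entrez identifier and gene length in bases) as the authors counted them. Subread, featureCounts, limma and the mouse build GRCm38 (mm10) are named per the submitters' processing notes, and their versions, the annotation, strand setting and treatment of multi-mapping reads are not given in sources used here. Symbols came from RefSeq for 25275 of 27179 genes and from GENCODE for 18, and 1886 had none. The list members Cd244, Hbb-bt and Ahsp matched no gene.

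The 6 libraries were fitted in R 4.3.3 with edgeR 4.0.16 (TMM scaling, filterByExpr with a minimum count of 10, which kept 11117 genes, and the quasi-likelihood test with Benjamini-Hochberg adjustment over all of them, threshold 0.05). On counts simulated for cultured WT against sorted, with 11008 genes tested, it recovered 76 of 100 genes raised 2-fold and 100 of 100 raised 4-fold, with 3 false calls. The simulation gave all genes the same spread, put no difference between the sorted stages and lowered no gene. In the real comparison 56.9% of genes were called, in both directions. The simulated false calls therefore do not give its error rate. DESeq2 1.42.0 and limma 3.58.1 were alternatives, among 14 settings in all. CPM used TMM-scaled library sizes, and RPKM also the deposited gene length.

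Genes were named by a rule: the 10 largest changes each way among called genes outside the sorted range with 20 CPM or more on the higher side, up to 3 such members of each list each way or otherwise the 2 highest, the 8 highest per length on each side, and a fixed set. Some genes that the rule names are not reported here. Other list members were named after their values were seen. The members and lists were chosen with earlier results of these data known.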

Additional observations from a re-analysis of the deposited data

How the results depend on the processing

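No paired analysis was possible because the sorted libraries carry no replicate numbers shared with the cultures. Against 3055 genes called higher and 3270 lower, DESeq2 called 2974 and 3121, limma voom 3071 and 3281, no filter 3178 and 3688, a filter of 5 CPM 2882 and 3069, library sizes alone 3718 and 2606, and a fit to all 9 libraries 3094 and 3279, the sorted populations as 3 groups 3377 and 3367, and a linear term for stage 3391 and 3474. With a fold over 2 also required, 1792 were higher and 1600 lower. Leaving out each library in turn gave 2629 to 3196 higher and 2760 to 3384 lower, 7768 to 8265 genes outside the sorted range against 7291, and 16 to 18 lists with a median past 1 on the log2 scale against 18 of 30. Over the 434 genes that the rule named or a list held and that were tested, there were 6058 gene and setting pairs. Of these 5723 stayed on the same side of the threshold, 217 lost the call (in 55 genes) and 118 gained it (in 47). In 0 pairs did a gene called in either fit change direction. Genes called in neither fit were not checked for direction. With 1 library per sorted stage, stages have no replicate check, and at 4128414 to 4831831 counts per library a count of 0 allows up to 0.569 to 0.75 CPM.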

Other observations

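Gene families outside the lists were grouped by symbol after their values were seen, so their counts are a description. Of 25 kinesin genes tested 15 rose and 3 fell, with a median log2 fold change of 2.83, and of 21 centromere protein genes 14 rose and 1 fell, with a median of 1.82. Cenpe, a kinesin that moves chromosomes, stood at 246, 196 and 210 CPM in WT replicates 1 to 3 and at 7.5, 3.07 and 3.18 CPM in Immature, M1 and M2. Kif20b, a kinesin of cell division, stood at 130, 106 and 109 CPM against 8.5, 9.45 and 9.55 CPM. The metallothionein gene Mt1, which encodes a metal-binding protein, rose to 132 ± 32.7 CPM from 0.5, 0.236 and 0.979 CPM. Of 5 Ifitm genes 4 rose and 1 fell. Ifitm1, an antiviral membrane protein, rose to 456 ± 92.2 CPM from 7.75, 10.6 and 27.2 CPM, unlike most interferon-stimulated genes above. The Ifitm genes are close copies, and their separate counts are uncertain.

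Of 12 MHC class I genes tested 9 fell and 0 rose, with a median of -1.35, and of 12 cathepsin genes 8 fell and 0 rose, with a median of -1.32. Class I genes are near-identical copies too. Of 82 cytoplasmic ribosomal protein genes 15 rose and 24 fell, with a median of -0.21, while of 17 tRNA synthetase genes 8 rose and 0 fell, with a median of 0.54. The ribosomal protein group was formed by symbol and also holds the related genes Rpl7l1 and Rpl22l1. Its cultured means were as unlike as 2.89 CPM for Rps23 and 1452 CPM for Rpl8. Processed copies can share these reads, as for Gapdh, so the separate counts are uncertain. Entpd4b, with no count in the sorted libraries, had 169, 174 and 189 counts in the WT cultures and 149, 146 and 0 in the 3 Id2-null cultures. Gm2274 had 166, 188 and 278 counts in the WT cultures and 215, 194 and 0 in the Id2-null ones, and the third Id2-null library had no count of either gene. Tmem254a had 1 count in the WT cultures and 60 in the sorted libraries, while Tmem254b had 206 and 0. What underlies these all-or-none counts was not tested.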
